A study of Mus musculus with 4 samples.

Results

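Genes that respond to interferon were followed across regulatory CD4 T cells of mice with and without a conditional deletion of Prdm1, which encodes the transcriptional repressor Blimp-1. The list was given by name and holds 58 genes: receptors for interferon, the transcription factors that receptors activate, and genes that these factors switch on. A gene was measured when a probe of the array named it alone, which held for 52 of the 58. Where several probes named a gene the brightest was taken, and the whole table measured 22180 genes in this way. Ifi44 had no such probe, and Oas1a, Dtx3l, Gbp2, Tgtp1 and Ifi47 were covered only by probes that name a further gene, so that these 6 were not analysed here. Of the 52 measured members, 48 had a mean level above 5.91, the median of all genes, and are called bright below. The other 4, Ifitm1, Mx1, Mx2 and Gbp6, were dim, and Oas2 and Ifitm3 lay under 5.91 in 1 array each, that of KO TFR cells.

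Cells were sorted 7 days after NP-OVA in CFA was given to mice of both genotypes. KO mice carried floxed Prdm1 alleles together with FoxP3YFP-Cre (Prdm1fl/flFoxP3YFP-Cre), and WT mice carried FoxP3YFP-Cre alone, so that both genotypes express Cre and YFP under the control of Foxp3. TFR cells, the follicular regulatory cells, were PD1+CXCR5+YFP+, and non-TFR cells were CXCR5-YFP+ regulatory cells, so that PD1 selection and CXCR5 cannot be told apart. Cre is driven in every cell that expresses Foxp3, and the sources used here do not state the number or age of the mice behind an array. Each of the 4 groups, KO TFR, WT TFR, KO non-TFR and WT non-TFR, was 1 array. There is no replicate check of any difference reported, no p-value is given, and each comparison is one between single arrays.

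Type I interferons bind a receptor of IFNAR1 and IFNAR2 and, through JAK kinases, activate a complex with STAT2 and IRF9 that binds the interferon-stimulated response element (ISRE) in promoters. Interferon gamma binds IFNGR1 and IFNGR2 and acts through gamma-activated sites (GAS) in promoters to induce IRF1 and many GTPases of the GBP and IRG families. In regulatory T cells interferon gamma signalling is known to promote a T-bet positive state that shares features with T helper 1 cells, and type I interferon has been described to limit regulatory T cell activity during infection.

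The target of Cre, Prdm1, had a level of 7.32 in KO TFR cells, 8.21 in WT TFR cells, 7.59 in KO non-TFR cells and 7.80 in WT non-TFR cells. Levels here are log2 signal after quantile normalization, and the sources used here do not state which exons the probe reads, so that it may lie outside the deleted part. Foxp3 was at 11.87 in KO TFR, 12.36 in WT TFR, 12.42 in KO non-TFR and 12.45 in WT non-TFR cells, and Cd3e, a subunit of the T cell receptor complex, lay between 12.93 and 13.04. Some defining genes of other cells were low in all 4 arrays: the B cell gene Ms4a1 lay between 3.98 and 4.12, Siglech of plasmacytoid dendritic cells between 4.81 and 5.61, and the macrophage gene Lyz2 between 4.08 and 4.46. Others were not: the B cell gene Cd22 was at 9.27 in KO TFR, 8.27 in WT TFR, 7.04 in KO non-TFR and 5.99 in WT non-TFR cells, and the macrophage gene Cd68 was at 9.17, 7.97, 7.59 and 7.47 in those groups. Ly6c2, of the monocyte and macrophage list, ran the other way. It was at 6.61 in KO TFR, 7.25 in WT TFR, 9.24 in KO non-TFR and 10.02 in WT non-TFR cells. The part of RNA from other cells in the members' values was not tested. Cd79b, a subunit of the B cell receptor, lay between 8.08 and 8.42. Over 7 measured B cell markers the mean level was 6.20 in KO TFR, 5.98 in WT TFR, 5.73 in KO non-TFR and 5.53 in WT non-TFR cells, with 3 to 5 of them under 5.91 in an array, over 8 monocyte and macrophage markers it lay between 5.54 and 5.82, with 6 of them under 5.91 in each array, and over 8 plasmacytoid dendritic cell markers, of which Bst2 is also a member, between 6.58 and 6.66. Cell division genes moved with the groups: 15 of 15 measured genes of a cell cycle list were higher in TFR than in non-TFR arrays, with a median difference of 1.88 in KO and 2.92 in WT mice. The part of these genes in the differences of the interferon genes was not tested. In bulk samples such as these, fewer cells of a type and less RNA per cell cannot be told apart.

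Interferon response genes were mostly lower in TFR than in non-TFR cells. In WT mice, 38 of 52 members were lower in TFR cells, where 48.3% of all genes were lower, and the members' median difference was -0.19 on the log2 scale against 0.015 over all genes. Differences are TFR minus non-TFR. At least 1.5-fold lower were 9 members, where 5.97% of all genes passed that fold, namely Oas2, Ifitm3, Irgm2, Ifngr2, Ifngr1, Gbp4, Usp18, Samhd1 and Gbp7. At least 1.5-fold higher were 2 members, Ifitm2 and Cxcl10, against 8.69% of all genes. At 2-fold the counts were 3 lower, with 1.18% of all genes past it, and 2 higher, with 2.69%. As deposited, without quantile normalization, the median of all genes moved to 0.11 and that of the members to -0.074. There 33 members lay below 0, beside 37.6% of all genes. On that scale 3.94% of all genes were at least 1.5-fold lower and 12.1% at least 1.5-fold higher.

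The comparison in KO mice used the other pair of arrays. There 42 of 52 members were lower in TFR cells, beside 50.0% of all genes, and the members' median was -0.29 against a median of all genes that rounds to 0. At least 1.5-fold lower were 15 members (6.88% of all genes): the 9 that passed this fold in WT mice, and Iigp1, Igtp, Gbp3, Irf1, Bst2 and Irf7. Over all genes, 678 passed in both genotypes, which is 51.2% of those in WT mice and 44.4% of those in KO mice. Past the same fold in the other direction were 2 members, Ifitm2 and the dim Mx2, against 7.85% of all genes. At 2-fold there were 6 lower members (1.18% of all genes) and 0 higher ones (2.23%). As deposited, the members' median was -0.20, with that of all genes at 0.12, and 32 members lay below 0, beside 37.2% of all genes. The shares of all genes past 1.5-fold were then 3.95% lower and 12.0% higher.

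**Figure D1:**
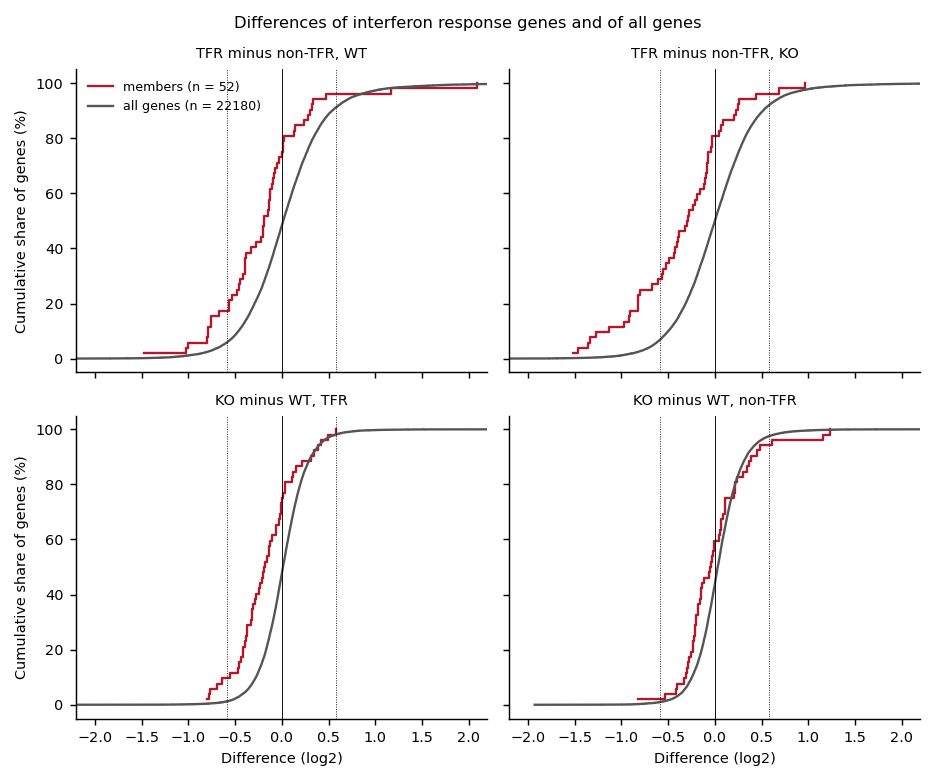
Cumulative share of genes (vertical axis, percent) against the log2 difference (horizontal axis) for 52 interferon response genes (red) and all 22180 genes (dark grey), 1 panel per comparison of single arrays. Dotted lines mark 1.5-fold, and the member curve lies left of the grey curve at its median in each panel, with member medians of -0.19 (TFR minus non-TFR, WT), -0.29 (the same in KO), -0.19 (KO minus WT, TFR) and -0.045 (KO minus WT, non-TFR).

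The receptor genes were among the members that differed between the populations. Ifngr1, the ligand-binding chain of the interferon gamma receptor, had levels of 9.26 in KO TFR, 10.03 in WT TFR, 10.62 in KO non-TFR and 10.82 in WT non-TFR cells. Both TFR arrays thus lay below both non-TFR arrays, as they did for 30.9% of all genes. The population difference was -1.35 (2.55-fold lower) in KO mice and -0.79 (1.73-fold lower) in WT mice. Ifngr2, the signalling chain of that receptor, had levels of 8.56 in KO TFR, 8.97 in WT TFR, 9.36 in KO non-TFR and 9.77 in WT non-TFR cells, and its TFR array was 1.74-fold lower in either genotype. The type I receptor chains varied less between arrays. Ifnar1, a chain of the type I receptor, was at 9.57 in KO TFR, 9.73 in WT TFR, 9.80 in KO non-TFR and 10.13 in WT non-TFR cells, a population difference of -0.23 in KO and -0.40 in WT mice. Ifnar2, its partner, was at 10.61, 10.60, 10.89 and 10.67 in those groups, with differences of -0.28 and -0.07, the second of which turned above 0 as deposited.

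Of the transcription factors, Irf1, which interferon gamma induces directly, had levels of 8.35 in KO TFR, 8.82 in WT TFR, 9.18 in KO non-TFR and 9.22 in WT non-TFR cells. The KO TFR array stood lowest, and the non-TFR arrays differed by -0.04 (KO minus WT). Its population difference was -0.83 in KO and -0.40 in WT mice. Irf7, the factor that amplifies type I interferon production, was at 9.15 in KO TFR, 9.52 in WT TFR, 9.76 in KO non-TFR and 9.97 in WT non-TFR cells. Irf9, the DNA-binding subunit of the ISRE complex, was at 9.39 in KO TFR, 9.49 in WT TFR, 9.79 in KO non-TFR and 9.91 in WT non-TFR cells, a population difference of -0.40 in KO and -0.41 in WT mice. Its partner Stat2 lay between 8.76 and 8.84 in all 4 arrays. The feedback protease Usp18, which removes ISG15 from proteins and restrains the type I receptor, had levels of 8.45, 8.89, 9.42 and 9.64 in KO TFR, WT TFR, KO non-TFR and WT non-TFR cells. That is 1.97-fold lower in TFR cells of KO mice and 1.69-fold lower in those of WT mice. Socs7, of the SOCS family of signalling inhibitors, lay between 7.67 and 7.86.

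The GBP and IRG GTPases, which attack the membranes around intracellular pathogens, had the lowest median of any role in the KO comparison of populations. All 8 measured genes were lower in the TFR array there, beside 50.0% of all genes, with a median of -0.91. At least 1.5-fold lower were 6 of them, beside 6.88% of all genes. However, Gbp6 (-0.04) and Irgm1 (-0.08) lay near 0 and turned above 0 as deposited. In WT mice 7 of the 8 were lower, beside 48.3% of all genes, with a median of -0.49. Gbp7 had levels of 9.39 in KO TFR, 10.19 in WT TFR, 10.91 in KO non-TFR and 10.87 in WT non-TFR cells, a population difference of -1.52 (2.87-fold lower) in KO mice and -0.68 (1.60-fold lower) in WT mice. Irgm2, a regulator of other IRG proteins, was at 7.61 and 7.62 in KO and WT TFR cells, against 9.07 and 8.62 in KO and WT non-TFR cells. The TFR arrays were alike for this gene, and the population difference was 2.75-fold lower in KO mice and 2.01-fold lower in WT mice. Iigp1, an effector of the IRG family, had levels of 8.92, 9.05, 10.05 and 9.44 in KO TFR, WT TFR, KO non-TFR and WT non-TFR cells, with the KO non-TFR array standing highest. Igtp was 1.89-fold lower in TFR cells of KO mice and 1.45-fold lower in those of WT mice. Gbp3 was 1.87-fold lower in TFR cells of KO mice and 1.36-fold lower in those of WT mice. Gbp4 was at 9.63 in KO TFR, 9.86 in WT TFR, 10.45 in KO non-TFR and 10.65 in WT non-TFR cells. Genes of these families are close relatives in sequence, and how signal was split between them was not tested.

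Antiviral effectors differed from each other in direction. Oas2, which makes the 2-5A messenger that activates RNase L, had the lowest difference of all members in WT mice: its level was 6.40 in WT TFR against 7.88 in WT non-TFR cells (2.77-fold lower). In KO mice it was at 5.71 in TFR against 7.05 in non-TFR cells, and no fold is given there because the lower value lay under 5.91. Oasl2 was 1.48-fold lower in TFR cells of either genotype. Oas3 ran the other way, at 8.39 in KO TFR, 8.40 in WT TFR, 8.15 in KO non-TFR and 8.08 in WT non-TFR cells, and Oasl1 differed between populations by -0.10 in KO and -0.38 in WT mice. Samhd1, which depletes the nucleotides that viruses need for reverse transcription, had levels of 11.34 in KO TFR, 11.55 in WT TFR, 12.17 in KO non-TFR and 12.32 in WT non-TFR cells. Bst2, or tetherin, which holds budding virus at the cell surface, had levels of 10.48, 10.87, 11.15 and 11.44 in that order. For both genes the TFR arrays therefore lay below both non-TFR arrays, as they did for 30.9% of all genes. The TFR array was lower by 1.77-fold in KO and 1.69-fold in WT mice for Samhd1 and by 1.59-fold and 1.48-fold for Bst2. Isg15, the ubiquitin-like modifier that is among the most strongly interferon-induced genes, did not follow them. Its level was 10.38 in KO TFR, 9.99 in WT TFR, 10.33 in KO non-TFR and 9.97 in WT non-TFR cells, so that the arrays lay together by genotype and not by population.

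The IFITM family, membrane proteins that block the entry of viruses, differed in direction. Ifitm3 had levels of 5.73 in KO TFR, 6.51 in WT TFR, 7.00 in KO non-TFR and 7.53 in WT non-TFR cells. Ifitm2 ran the other way, with 9.56 in KO TFR, 9.53 in WT TFR, 8.60 in KO non-TFR and 7.44 in WT non-TFR cells, and was 1.95-fold higher in TFR cells of KO mice and 4.25-fold higher in those of WT mice. Ifitm1 was dim, between 4.30 and 4.89. Cxcl10, a chemokine that draws CXCR3-bearing cells, also stood apart from the rest of the list. It had levels of 8.67 in KO TFR, 8.18 in WT TFR, 8.24 in KO non-TFR and 7.01 in WT non-TFR cells, so that the WT non-TFR array alone was low. Of the 7 B cell markers Cd22 and Pax5 held the same order of arrays as Ifitm2, as did 12.9% of all genes. Ms4a1 and Cd79a held the reverse order, as did 9.51% of all genes. Both of these lay under 5.91 in every array, and Pax5 had a mean level of 5.50. The part of B cell RNA in these values was not tested. Among the IFIT genes, which bind viral RNA, Ifit1 was at 7.94 in KO TFR, 7.72 in WT TFR, 8.02 in KO non-TFR and 8.20 in WT non-TFR cells, Ifit2 between 7.11 and 7.53, and Ifit3 between 6.55 and 6.98.

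The remaining members passed 1.5-fold in neither population comparison, apart from the dim Mx2, an antiviral GTPase at 6.15 in KO TFR cells and under 5.91 in the other arrays. Its relative Mx1 lay between 4.73 and 5.07. Among the sensors of viral RNA, Ifih1 was at 9.78 in KO TFR, 9.63 in WT TFR, 9.69 in KO non-TFR and 9.48 in WT non-TFR cells, and Ddx58, which encodes RIG-I, lay between 9.28 and 9.66. Their relative Dhx58 differed between populations by -0.52 in KO and -0.28 in WT mice. Eif2ak2, the kinase PKR that halts translation, was at 7.19 in KO TFR, 6.77 in WT TFR, 6.96 in KO non-TFR and 6.47 in WT non-TFR cells, higher in the KO array of each population. The nucleic acid sensor Zbp1 lay between 10.25 and 10.76 and the RNA editor Adar between 9.69 and 9.96. Parp14, an ADP-ribosyltransferase, had levels of 9.56, 9.24, 9.60 and 9.38 in KO TFR, WT TFR, KO non-TFR and WT non-TFR cells, and Parp9 lay between 7.57 and 7.95. Xaf1, a proapoptotic protein, was at 8.08, 8.72, 8.16 and 8.39 in that order, and Herc6, the mouse ligase for ISG15, lay between 9.42 and 9.49. Population differences of Trim25, Trim30a, Rsad2, Cmpk2, Isg20, Rtp4, Epsti1 and Ifi35 lay between -0.56 and -0.03 in KO mice and between -0.22 and 0.13 in WT mice. Ifi35 has 2 probes, and the dimmer one gave -0.56 in KO and -0.05 in WT mice where the brighter one gave -0.20 in KO and -0.22 in WT mice.

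**Figure D2:**
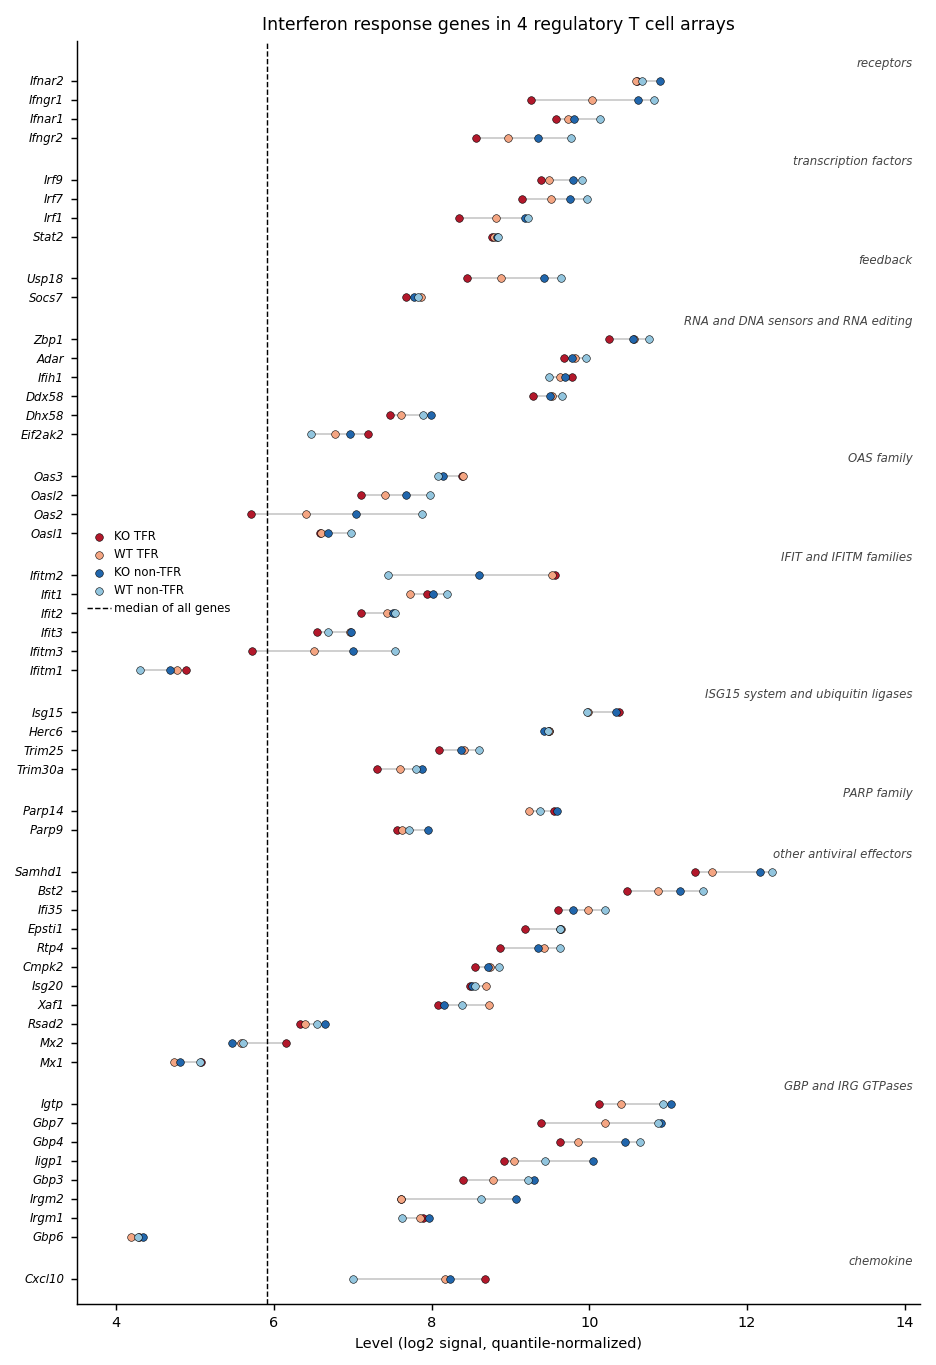
Level (horizontal axis, log2 signal after quantile normalization) of each of the 52 measured members (rows, grouped by role) in KO TFR, WT TFR, KO non-TFR and WT non-TFR cells, 1 point per array. The dashed line is the median of all genes, 5.91. KO TFR is the lowest point for 37 of the 52.

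**Figure D3:**
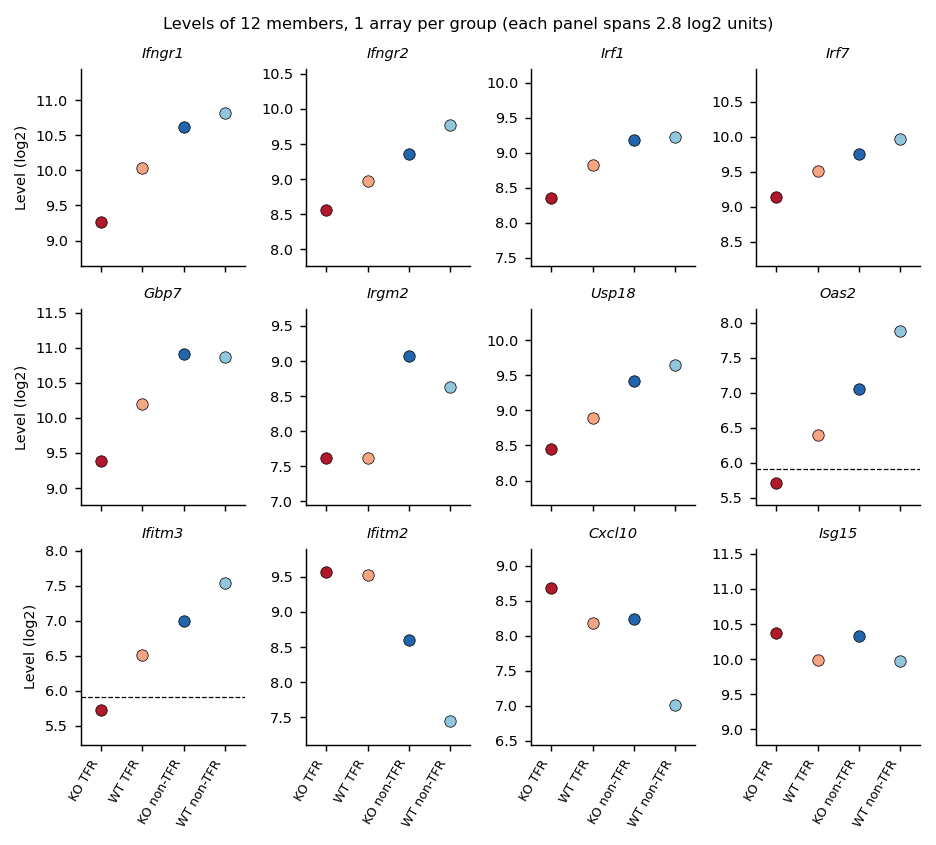
Levels (vertical axes, log2 signal) of 12 members in the 4 arrays (horizontal axis), every panel spanning 2.8 log2 units. Ifngr1, Ifngr2, Irf1, Irf7, Usp18, Oas2 and Ifitm3 are lowest in KO TFR and highest in WT non-TFR cells, Ifitm2 and Cxcl10 have their lowest point in WT non-TFR cells, and Isg15 is higher in both KO arrays (10.38 and 10.33) than in the WT arrays (9.99 and 9.97).

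The order of the 4 arrays was not the same for the members as for genes at large. KO TFR cells had the lowest level for 37 of 52 members (71.2%), against 26.6% of all genes, and WT non-TFR cells had the highest for 24 (46.2%), against 24.0%. Both TFR arrays lay below both non-TFR arrays for 27 members (51.9%), where 30.9% of all genes did so, and above both for 4 members (7.69%), where 32.0% did. The complete order KO TFR, WT TFR, KO non-TFR, WT non-TFR from low to high was held by 16 members (30.8%), against 9.51% of all genes. These 16 were Ifnar1, Ifngr1, Ifngr2, Stat2, Irf1, Irf7, Irf9, Usp18, Oas2, Oasl1, Oasl2, Ifit2, Ifitm3, Bst2, Samhd1 and Gbp4. As deposited, KO TFR was the lowest array for 30 members (57.7%, against 20.2% of all genes), and the complete order held for 12 (23.1%, against 6.51%). Both TFR arrays then lay below both non-TFR arrays for 20 members (38.5%, against 20.8% of all genes) and above both for 10 (19.2%, against 44.3%).

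Most interferon genes had lower values in KO than in WT TFR cells. KO TFR cells were below WT TFR cells for 38 of 52 members, against 47.6% of all genes, and the median difference, KO minus WT, was -0.19 against 0.013 over all genes. Few differences were large: 5 members were at least 1.5-fold lower (1.24% of all genes), 0 at least 1.5-fold higher (1.81%), and 0 passed 2-fold in either direction (0.162% of all genes lower and 0.289% higher). Gbp7 had the lowest value at -0.80 (1.74-fold lower), followed by Ifitm3 (-0.78), Ifngr1 (-0.77, 1.70-fold lower), Oas2 (-0.69) and Xaf1 (-0.65, 1.56-fold lower). Of all genes, 0.392% had a lower difference than Gbp7, 0.491% than Ifngr1 and 0.884% than Xaf1. The 4 transcription factors were all on the lower side, at -0.47 for Irf1, -0.37 for Irf7, -0.10 for Irf9 and -0.03 for Stat2. Among receptors Ifngr2 was at -0.41, Ifnar1 at -0.16 and Ifnar2 at 0.01, the last of which turned below 0 in 2 other scalings. The members with the highest values among bright ones were Cxcl10 (0.50), Eif2ak2 (0.42), Isg15 (0.39), Parp14 (0.32) and Ifit1 (0.22). Of 8 Treg markers, 5 lay below 0, beside 47.6% of all genes, and the median of the 8 was -0.28. Those below 0 included Il2ra (-0.67), Foxp3 (-0.49) and Ikzf4 (-0.38), whereas Ikzf2 (0.12), Cd3e (0.12) and Cd4 (0.10) lay above 0. The part of these markers in the members' median of -0.19 was not tested. This comparison shares the WT TFR array with the first population comparison and the KO TFR array with the second, so that their values are not independent.

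The non-TFR genotype comparison shares no array with that in TFR cells and 1 array with each population comparison. In it KO was below WT for 31 of 52 members (59.6%), against 43.8% of all genes, with a median of -0.045 against 0.030. The members' median lay nearer to that of all genes here than in the TFR genotype comparison. Oas2 was the only member at least 1.5-fold lower, at -0.83 (1.77-fold; 1.01% of all genes passed this fold), with levels of 7.05 in KO and 7.88 in WT cells. At least 1.5-fold higher were 3 members (2.44% of all genes): Cxcl10 at 1.23 (2.34-fold), Ifitm2 at 1.15 (2.23-fold) and Iigp1 at 0.61 (1.53-fold). Of these, 2 passed 2-fold (0.433% of all genes) and 0 members were 2-fold lower (0.0766%). Next in size on the lower side were Ifitm3 (-0.53), Ifngr2 (-0.42), Ifi35 (-0.40 by its brighter probe, at 9.80 in KO and 10.20 in WT cells, and 0.04 by the other) and Ifnar1 (-0.33), and on the higher side Eif2ak2 (0.49) and Irgm2 (0.45). Of the GTPases 7 of 8 lay above 0 here, with a median of 0.10, beside 12451 of all 22180 genes. In TFR cells 6 of 8 lay below 0 with a median of -0.18, beside 47.6% of all genes. The dim Gbp6 lay above 0 in both comparisons. Irgm1, at 0.03 in TFR cells, turned below 0 with quantile normalization of probes with 1 gene. KO was below WT in both populations for 27 members (51.9%), against 23.5% of all genes, and above WT in both for 10 (19.2%, against 32.0%).

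The genotype difference in TFR cells minus that in non-TFR cells had a median of -0.12 over the members and -0.018 over all genes, and 38 of 52 members were below 0, against 52.9% of all genes. It was at least 1.5-fold below 0 for 5 members (3.94% of all genes), namely Ifitm2 (-1.12), Gbp7 (-0.84), Iigp1 (-0.75), Cxcl10 (-0.73) and Ifit3 (-0.71). For Ifitm2 and Cxcl10 this came with a larger KO-minus-WT difference in non-TFR cells (1.15 and 1.23) than in TFR cells (0.03 and 0.50). For Gbp7 it came with a difference of -0.80 in TFR and 0.04 in non-TFR cells. Above the same fold were 2 members (2.78% of all genes), Mx2 and Mx1, both dim. Among bright members the highest values were 0.40 for Ifit1, 0.28 for Oasl1 and 0.17 for Ifnar1. The 4 arrays leave no residual degree of freedom, and the difference between populations was not tested. Of the 8 Treg markers 7 were below 0 on this measure, with a median of -0.37 beside the members' -0.12. The 15 cell cycle genes had a median KO-minus-WT difference of 0.05 in TFR and 0.84 in non-TFR cells.

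**Figure D4:**
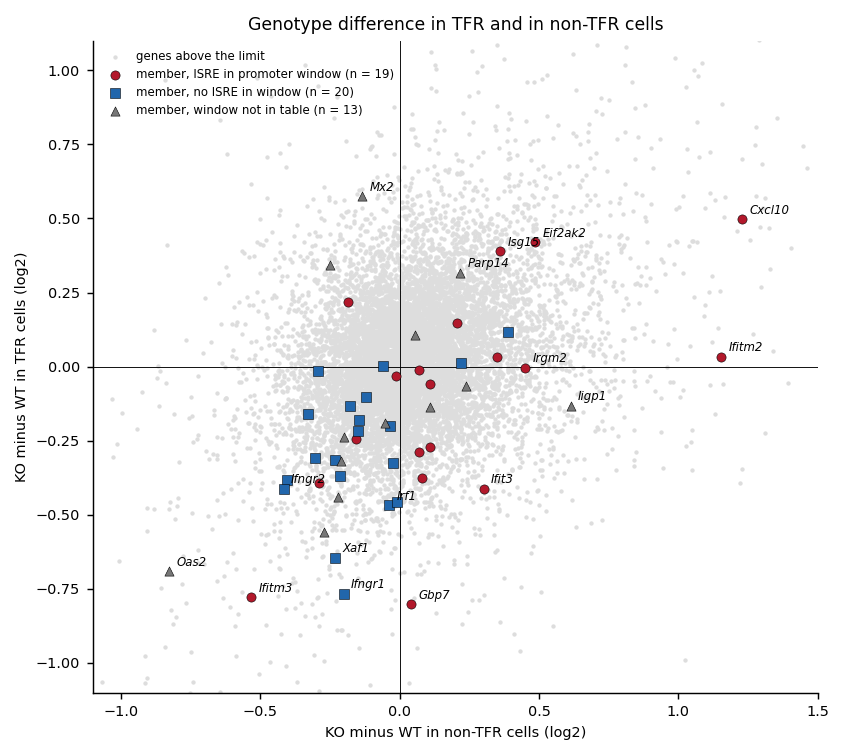
KO minus WT difference (log2) in TFR cells (vertical axis) against that in non-TFR cells (horizontal axis). Grey points are bright genes within the axes, and larger symbols are members by whether an ISRE is in the promoter window. Gbp7, Ifngr1 and Xaf1 lie low at values near 0 on the horizontal axis (0.04, -0.20 and -0.23), Oas2 lies low on both axes, and Cxcl10 and Ifitm2 lie far to the right.

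Promoters were examined because many members differed in the same direction and their known inducers bind short motifs. RefSeq sequence (GRCm38.p6) from 250 bases before to 50 bases after the start was found for 39 of the 52 measured members, and not for Dhx58, Usp18, Mx1, Mx2, Oas2, Rtp4, Gbp4, Gbp6, Iigp1, Zbp1, Parp9, Parp14 and Socs7. An ISRE was searched as GAAA, any 2 bases and again GAAA, and a GAS as TTC, any 3 bases and GAA, on both strands. At least 1 ISRE was in a window of 19 of the 39 members (48.7%), against 3.99% of the 27025 genes in the table, and a GAS was in 14 (35.9%, against 9.55%). Both were in 6 (Bst2, Gbp7, Igtp, Irgm2, Eif2ak2 and Ifitm3), with motifs that overlap in Bst2 and Ifitm3, and neither was in 12. A match is a run of letters and not a shown binding site. In the sequences that follow, written 5′ to 3′ on the strand of the gene, capitals mark ISRE and GAS matches. Gbp7, Ifitm3 and Ifngr1 are shown as the members lowest in KO against WT TFR cells among those in the table, Irgm2 for its population difference, and Cxcl10, Ifitm2 and Isg15 as members that ran the other way.
Gbp7, chr3:142530086-142530385, plus strand: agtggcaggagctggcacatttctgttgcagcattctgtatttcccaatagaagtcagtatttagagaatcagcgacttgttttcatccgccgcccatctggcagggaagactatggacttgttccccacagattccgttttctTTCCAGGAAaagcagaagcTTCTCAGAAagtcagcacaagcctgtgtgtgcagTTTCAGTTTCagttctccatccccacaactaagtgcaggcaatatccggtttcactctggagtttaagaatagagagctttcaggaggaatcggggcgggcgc
Ifitm3, chr7:141010695-141010994, minus strand: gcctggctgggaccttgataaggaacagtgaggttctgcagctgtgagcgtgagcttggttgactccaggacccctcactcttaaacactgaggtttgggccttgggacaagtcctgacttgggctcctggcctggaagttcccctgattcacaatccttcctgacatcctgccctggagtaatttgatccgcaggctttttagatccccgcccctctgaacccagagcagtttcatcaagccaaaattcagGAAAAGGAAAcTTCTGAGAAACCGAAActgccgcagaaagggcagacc
Ifngr1, chr10:19591699-19591998, plus strand: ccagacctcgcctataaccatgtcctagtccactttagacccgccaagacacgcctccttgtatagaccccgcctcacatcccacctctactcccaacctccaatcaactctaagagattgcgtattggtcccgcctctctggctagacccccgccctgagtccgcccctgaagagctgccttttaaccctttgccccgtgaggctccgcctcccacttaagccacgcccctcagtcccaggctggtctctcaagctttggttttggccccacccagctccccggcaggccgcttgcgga
Irgm2, chr11:58214727-58215026, plus strand: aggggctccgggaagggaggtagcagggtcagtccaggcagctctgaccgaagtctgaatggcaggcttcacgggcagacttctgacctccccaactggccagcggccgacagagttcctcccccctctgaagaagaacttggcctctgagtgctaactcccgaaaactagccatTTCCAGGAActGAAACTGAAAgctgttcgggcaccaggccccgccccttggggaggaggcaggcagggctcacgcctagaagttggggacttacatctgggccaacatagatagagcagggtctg
Cxcl10, chr5:92348840-92349139, minus strand: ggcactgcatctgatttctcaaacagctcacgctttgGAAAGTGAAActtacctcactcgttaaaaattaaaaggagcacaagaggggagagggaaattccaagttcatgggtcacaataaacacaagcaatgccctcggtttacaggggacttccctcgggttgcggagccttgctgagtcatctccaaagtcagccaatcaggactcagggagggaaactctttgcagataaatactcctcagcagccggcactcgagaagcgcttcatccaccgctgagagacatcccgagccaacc
Ifitm2, chr7:140955912-140956211, minus strand: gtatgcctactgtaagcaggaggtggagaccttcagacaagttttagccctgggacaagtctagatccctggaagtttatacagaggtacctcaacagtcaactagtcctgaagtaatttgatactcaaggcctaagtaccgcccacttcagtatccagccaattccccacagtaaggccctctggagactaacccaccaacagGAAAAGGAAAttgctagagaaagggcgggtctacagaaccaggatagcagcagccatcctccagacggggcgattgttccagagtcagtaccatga
Isg15, chr4:156200769-156201068, minus strand: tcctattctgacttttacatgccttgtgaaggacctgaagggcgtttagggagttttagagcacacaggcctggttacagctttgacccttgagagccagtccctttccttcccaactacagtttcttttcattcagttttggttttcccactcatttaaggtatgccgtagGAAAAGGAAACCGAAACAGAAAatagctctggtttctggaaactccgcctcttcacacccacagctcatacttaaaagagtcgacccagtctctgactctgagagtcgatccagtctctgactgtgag

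In Gbp7 the ISRE begins 53 bases before the start, with GAS matches 106 and 87 bases before it. The Irgm2 window holds a GAS 75 and an ISRE 64 bases before the start, and Igtp, which was also lower in TFR cells, has a GAS 45 and an ISRE 34 bases before it. Isg15 holds 3 overlapping ISRE matches from 78 to 66 bases before the start. Ifitm2 and Ifitm3, whose levels ran in opposite directions, each hold an ISRE, 46 bases before the start in Ifitm2 and from bases 3 and 20 of the transcript in Ifitm3. Ifngr1, one of the members with the lowest values in KO TFR cells, holds neither motif in its window.

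Of the 4 comparisons, medians of members with and without an ISRE lay furthest apart in the genotype comparison of non-TFR cells. There 14 of the 19 members with an ISRE were above 0, with a median of 0.11, and 2 of the 20 without one, with a median of -0.16. Of all 22180 genes 12451 were above 0 there, with a median of 0.030. The 14 included Cxcl10, Ifitm2, Eif2ak2, Irgm2 and Isg15, and the 5 ISRE members below 0 were Ifitm3, Bst2, Ifit1, Ddx58 and Stat2. In TFR cells 7 of the 19 were above 0, with a median of -0.032, and 3 of the 20, with a median of -0.26. Of all 22180 genes 11620 were above 0 in that comparison. Over other bright genes the ISRE did not go with such a shift between genotypes in non-TFR cells. There 309 genes with an ISRE had a median of 0.019 and 8446 without one had 0.031. Between populations the 309 had medians of -0.056 in KO and -0.060 in WT mice, and the 8446 had 0.027 and 0.030. Members with an ISRE had population medians of -0.22 in KO and -0.13 in WT mice, and members without one -0.28 and -0.21. As deposited, the WT medians were 0.011 with and -0.082 without an ISRE. Between populations, the 14 members with a GAS had a median TFR-minus-non-TFR difference of -0.54 in KO and -0.40 in WT mice, and the 25 without one -0.16 and -0.12. Other bright genes with a GAS had medians of 0.0084 in KO and 0.026 in WT mice. These splits are descriptions of single arrays. Members with an ISRE and members with a GAS overlap, and 5 of the 19 are GTPases. Gbp7, Igtp and Irgm2, of the 14 with a GAS, are GTPases too. The GAS split was not redone in other scalings or without the GTPases.

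**Figure D5:**
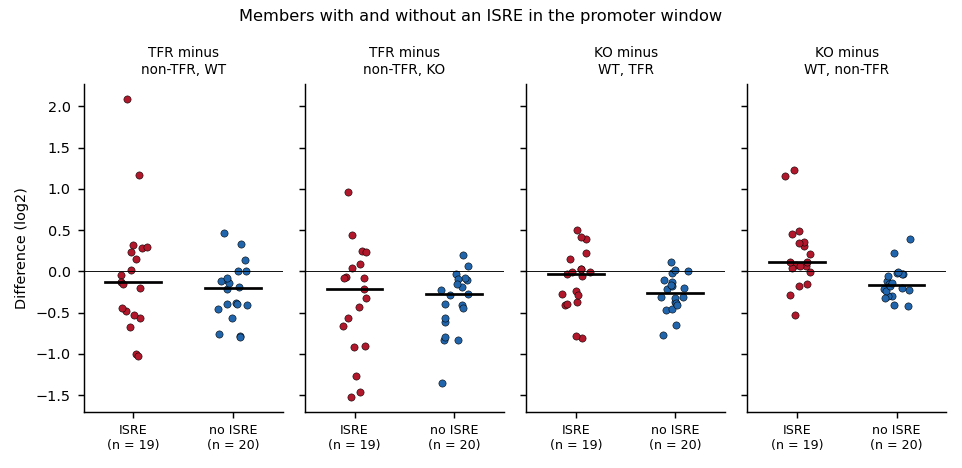
Log2 difference (vertical axis) of the 19 members with and the 20 members without an ISRE in the promoter window, 1 panel per comparison, with 1 point per gene and a bar at the median. Points are spread sideways only to be seen. In the rightmost panel the median is 0.11 with and -0.16 without an ISRE.

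Other genes of the pathway were read from lists of their own. Of 11 measured kinases, STATs and regulators, 5 were lower in TFR cells of KO mice and 7 in those of WT mice, beside 50.0% and 48.3% of all genes. The inhibitors Socs1 and Socs3, which interferon and other cytokines induce, differed between populations by -0.80 and -0.77 in KO and by -0.71 and -0.59 in WT mice. The kinase gene Jak2 was higher in TFR cells by 0.61 in KO and 0.35 in WT mice, and Jak1 lay between 12.06 and 12.19 in all arrays. In KO against WT TFR cells Irf8, a factor of the IRF family, was at -0.54 and the phosphatase Ptpn2 at -0.43. Antigen processing genes, which interferon gamma induces, were lower in TFR cells for 11 of 11 in KO mice (median -0.24; 50.0% of all genes were lower) and 9 of 11 in WT mice (median -0.11; 48.3%), and 0 of them passed 1.5-fold in any of the 4 comparisons. Their activator Nlrc5 differed by -0.47 in KO and -0.51 in WT mice, and Psme2 of the proteasome was at -0.39 in KO against WT TFR cells. Of 30 further measured interferon-stimulated genes, 21 were lower in TFR cells of KO mice (median -0.30; 50.0% of all genes were lower) and 19 in those of WT mice (median -0.079; 48.3%). In KO against WT cells 19 of the 30 were lower in TFR cells (median -0.089; 47.6% of all genes) and 12 in non-TFR cells (median 0.077), near the 43.8% of all genes. Gbp8 was at -0.70 in the TFR genotype comparison, and the thiol reductase gene Ifi30 was higher in TFR cells by 0.55 in KO and 0.94 in WT mice.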

How the data were processed

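RNA of the 4 sorted populations was amplified and measured, per the labels, on Affymetrix Mouse Gene 2.0 ST arrays, and groups were read from the sample titles. The deposited table holds log2 values, a scale taken from their range of 2.23 to 13.8; the submitters' processing notes list MAS5 with no role. Background correction and detection calls are not stated in the sources used here. Precision is limited by the number of arrays. Array medians spanned 0.105 and lay apart by population, at 5.68 in KO TFR, 5.69 in WT TFR, 5.58 in KO non-TFR and 5.58 in WT non-TFR cells. Quantile normalization (limma 3.58.1, R 4.3.3) was therefore applied to all 41345 probes. It would also remove a true shift shared by most genes, and so one between the populations.

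By the platform annotation 23521 probes name 1 gene, 1814 several and 16010 none. All 52 measured members matched the RefSeq gene table by Entrez identifier, and 1082 genes had several probes. Comparisons are log2 differences between arrays, counted at 1.5-fold and 2-fold over all 22180 genes, with no test. No fold is given where a value lay under 5.91. The per-gene and counting steps were tested on simulated arrays with known differences. Normalization and the motif search were not part of that test. The members and lists were chosen with earlier results of these data known. Named were the 5 bright members at each end of each comparison (3 for the difference of differences), all receptors and transcription factors, and at most 4 genes per pathway list with the largest differences; other genes were named after their values were seen. Alternatives were the values as deposited, centring on the 75th percentile, cyclic loess, the mean of a gene's probes, bright genes only, and quantile normalization of probes with 1 gene.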

Additional observations from a re-analysis of the deposited data

Results flagged for a closer look

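For 5 members the KO-minus-WT difference pointed in opposite directions in the 2 populations, and the gap between them, TFR minus non-TFR, was at least 1.5-fold. This holds for 9.62% of the 52 members and for 5.50% of all genes. The gap was -0.84 for Gbp7 (-0.80 in TFR and 0.04 in non-TFR cells), -0.75 for Iigp1 (-0.13 and 0.61), -0.71 for Ifit3 (-0.41 and 0.30), 0.71 for Mx2 (0.58 and -0.13) and 0.59 for Mx1 (0.34 and -0.25). Each rests on 4 single arrays, and the difference between populations was not tested. Mx1 and Mx2 had mean levels under the median of all genes.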

How the results depend on the processing

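The medians of the members in the 4 comparisons and in the difference of differences, and the counts past 1.5-fold, were recomputed under 6 alternatives. No median of the list changed sign. The WT population median was -0.074 as deposited, against -0.19, while all genes together had a median of 0.11; quantile normalization removes that shift by construction. In the KO population comparison 1 member was at least 1.5-fold higher over bright genes only, since the dim Mx2 is left out there. In the non-TFR genotype comparison 2 members were at least 1.5-fold lower with quantile normalization of probes with 1 gene, against 1; the cause was not tested. For the ISRE split in the non-TFR genotype comparison, alternatives were chosen after seeing the data. In each scaling 14 of 19 members with an ISRE lay above 0, with 2 or 3 of 20 without one. Leaving out the GTPases in the main scaling left 9 of 14 members with an ISRE above 0, with a median of 0.090. Of all 22180 genes 12451 lay above 0 in that scaling. No paired analysis was possible because each group has 1 array and the labels give no replicate numbers; an additive fit of population and genotype, which takes their interaction as error, was not run. Without replicates or detection calls, differences of dim genes such as Mx1 and Gbp6 cannot be told from background.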

Other observations

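Genes for interferons and for sensors that lead to their production were also read from the arrays. Ifng had levels of 7.93 in KO TFR, 8.71 in WT TFR, 8.25 in KO non-TFR and 7.96 in WT non-TFR cells, so that the WT TFR array stood highest. Its KO-minus-WT difference was -0.79 in TFR and 0.29 in non-TFR cells. Ifnb1 lay between 3.43 and 3.80 in all 4 arrays, under the median of all genes. Ifna4 was at 7.72, 7.93, 8.69 and 8.82 in KO TFR, WT TFR, KO non-TFR and WT non-TFR cells, and no detection call shows what part of this is above background.

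Endosomal sensors of nucleic acid differed between populations in opposite directions. Tlr7, a sensor of single-stranded RNA, was at 6.41 in KO TFR and 6.84 in WT TFR cells, against 8.34 and 8.54 in KO and WT non-TFR cells. Tlr9, a sensor of unmethylated CpG DNA, was at 7.29 and 6.75 in KO and WT TFR cells, against 6.26 and 6.03 in KO and WT non-TFR cells. Of the cytosolic pathway, the adaptor Mavs lay between 6.82 and 7.42 and the kinase Tbk1 between 7.59 and 7.83.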
